A study of Drosophila melanogaster with 62 samples.

Results

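The regions described here are 3′ UTR segments that the authors split at different bases in their early and late segment annotations of Drosophila melanogaster. A segment entered the set if its chromosome, start, end, strand and gene occurred in only 1 of the 2 deposited annotations and if the authors marked it as 3′ UTR. By this rule 4915 of 20927 early 3′ UTR segments (23.5%) and 4949 of 20961 late ones (23.6%) were members, 9864 of 41888 in all. They belonged to 2623 genes, and each of these genes had a member in both annotations. That was 22.7% of the 11544 genes with a 3′ UTR segment. The members were thus chosen by the coordinates themselves, so their positions and widths are given as a description, with no test.

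The series sequenced stranded poly(A) RNA from pooled male embryos, collected at 14 to 16 h (early) or at 18 to 22 h (late), and asked which 3′ UTR segments are used less when members of the ELAV family are lost. In the first experiment, 3 early libraries each were made from wild type, from the single mutants elav, fne and rbp9, from the double mutants elav-fne and elav-rbp9, and from the triple mutant elav-fne-rbp9. Late libraries numbered 4 for wild type, 3 for elav, 4 for fne and 5 for elav-fne. A further 3 fne-rbp9 libraries carry the late window in their labels but name an early table, so their stage is unclear. In the second experiment, wild type, nFne and elav-nFne had 3 libraries per stage. The labels name the alleles no further and do not say what nFne stands for, nor whether replicates came from separate crosses. Adult heads of wild-type males gave 2 further RNA libraries. The authors deposited comparisons and no values per embryo library, so depth and the spread between libraries are unknown here, and each fold below is the authors' single value.

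Most fly genes have several cleavage and polyadenylation sites, and the site that is used sets where the 3′ UTR ends. In the embryonic nervous system many genes shift to distal sites and gain long 3′ UTRs. ELAV and its paralog FNE are neuronal RNA-binding proteins known to promote this shift, and Rbp9 is the third member of the family. To measure such a shift from RNA-seq reads, a 3′ UTR is divided into segments, and the reads in a distal segment are set against those of the rest of the gene. A border between segments is therefore a coordinate on which each fold of segment use depends.

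The members differed at inner borders only, never at the outer ends of a 3′ UTR. Within a gene, some neighbouring segments shared 1 base, the last base of one being the first base of the next. Segments chained by a shared base are called a block here, and the shared base a split point. All 76993 blocks of the early annotation had the same ends in the late one. Of the 18335 blocks marked as 3′ UTR, 2805 (15.3%) had different split points, and these 2805 blocks held every member of both annotations. Apart from the members, 1 late segment outside 3′ UTRs was the only row that differed between the annotations.

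Few split points were the same in both annotations. The early annotation had 2595 split points and the late one 2629. Of these, 495 lay at the same base in both, 19.1% of the early and 18.8% of the late ones. The other 2100 early and 2134 late split points occurred in 1 annotation only and gave rise to the members. A block had at most 4 split points early and 5 late.

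Presence at 1 stage was the most common kind of difference. In 872 blocks an early split had no late counterpart in the block, and in 905 blocks a late split had no early one. In 720 blocks each annotation had exactly 1 split that the other lacked, whether or not a shared split was present. Several splits were moved, added or lost in 254 blocks. A shared split stood beside an additional late one in 31 blocks and beside an additional early one in 23. The annotations held similar numbers of splits of their own, and 2047 of the 2805 blocks had different numbers of splits at the 2 stages.

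Where each annotation had 1 split of its own, the move was usually short and went in both directions. The absolute shift over the 720 blocks had a median of 20 bases, quartiles of 7 and 70.25 bases and a 90th percentile of 188.3 bases. It was at most 10 bases in 229 blocks (31.8%) and at most 50 bases in 487 (67.6%). The late split lay downstream in 331 blocks and upstream in 389, with a signed median of -2 bases. Among longer moves, 121 exceeded 100 bases, and 79 of these went upstream in the late annotation and 42 downstream. Moves over 500 bases occurred in 17 blocks. The longest were downstream by 3025 bases in scrt, -1774 bases (upstream) in nej, downstream by 1659 bases in Sema1a, downstream by 1460 bases in CG12581 and downstream by 1403 bases in fs(1)h. These 5 genes are named for their shifts, after those were seen. They include the neural zinc finger factor scratch (scrt), the histone acetyltransferase nejire (nej), the guidance ligand and receptor Semaphorin 1a and the bromodomain protein fs(1)h.

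**Figure D1:**
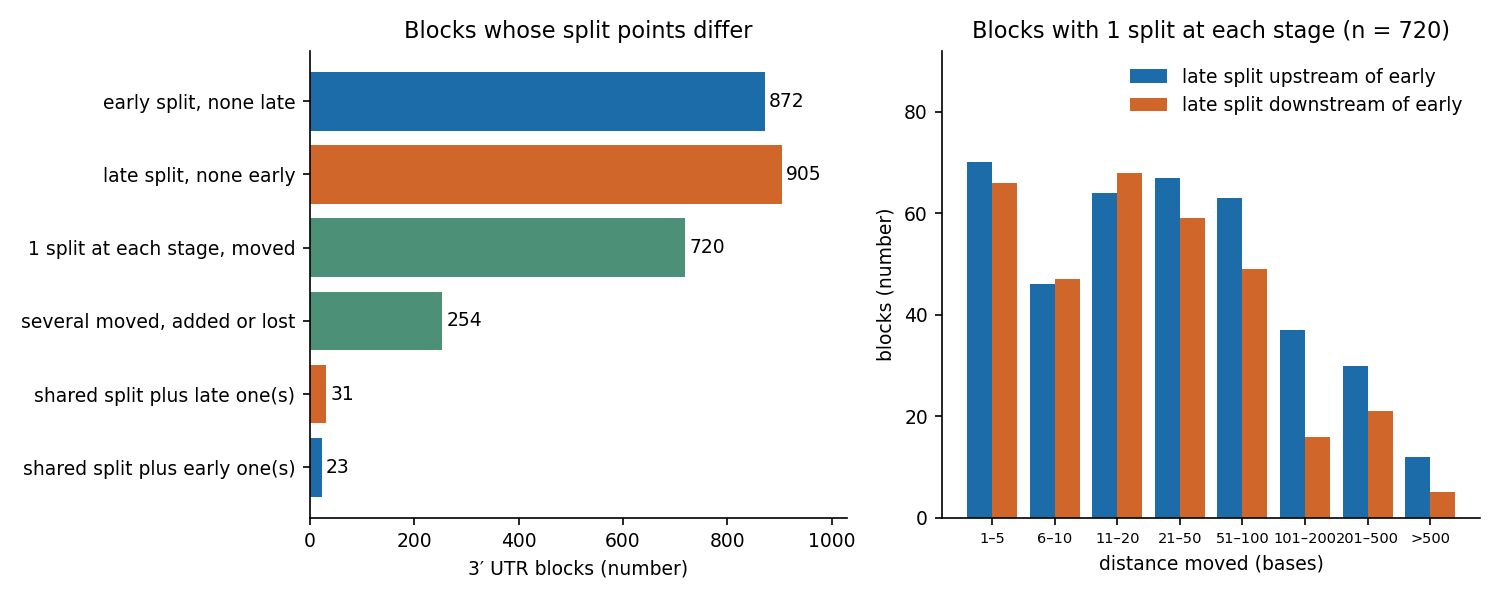
Left, number of 3′ UTR blocks by kind of difference between the early and late split points. Right, number of blocks by the distance in bases between their single early-only and single late-only split, with separate bars for late splits upstream and downstream. Splits found at 1 stage only (872 and 905 blocks) outnumber moved ones, and 67.6% of the 720 single moves are of at most 50 bases.

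Over all members the distances were larger. When each member was set beside the segment of the other annotation with which it shared most bases, the median distance between ends that differed was 161 bases at both stages. Of the 2100 early-only split points, 931 had no late split in their block and 678 (32.3%) had one within 50 bases. Of the 2134 late-only ones, 955 had none and 678 (31.8%) had one within 50 bases. The rule asks for exact bases. Members just inside it differed by 1 base, as in the RNA-binding protein gene shep (split at 389 bases from the 5′ end of the block early and 390 late) and in CG16779 (2610 and 2609). Split points just outside it were the 495 shared ones.

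Split points lay towards the distal end of their block. The median position was 69.6% of the block width from its 5′ end for early-only splits, 68.0% for late-only and 72.9% for shared ones. The segment downstream of the split had a median of 234 bases for early-only, 240.5 for late-only and 181 for shared splits. The smallest distance from a split to the next border was 101 bases early only, 102 late only and 21 among shared splits. Of the split points, 2077 of 2100 early-only and 2114 of 2134 late-only ones fell in an annotated 3′ UTR of their gene, 10 and 4 in coding sequence, and the rest in genes that the annotation used here does not hold. Within 50 bases of an annotated transcript end lay 2 early-only, 1 late-only and 1 of the 495 shared split points. Where such an end is also a border, the distances above leave no room for an early-only or late-only split that near.

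Wide blocks were those most often split at all, and with that most often split differently. The 2805 differing blocks were 927 bases wide at the median, the 369 3′ UTR blocks with the same splits 846 and the 15161 with none 396. Among blocks wider than 1000 bases 32.1% had differing splits, and among the others 10.7%. These shares are of all 3′ UTR blocks, most of which had no split. Of the blocks wider than 1000 bases, 1269 had differing splits, 148 the same splits and 2540 none. The share was 0.374% up to 250 bases and 46.1% above 4000 bases. Early-only and late-only splits lay at least 101 bases from the next border, which leaves the narrowest blocks little room for one. Members had a median width of 437 bases early (quartiles 224 and 844, range 102 to 12227) and 420 late (quartiles 228 and 816, range 103 to 14119). The other 3′ UTR segments, the same in both annotations, had a median of 390 bases and ranged from 1 to 11904. The widest late member was the distal block of the translational regulator mei-P26, whole late and split early.

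**Figure D2:**
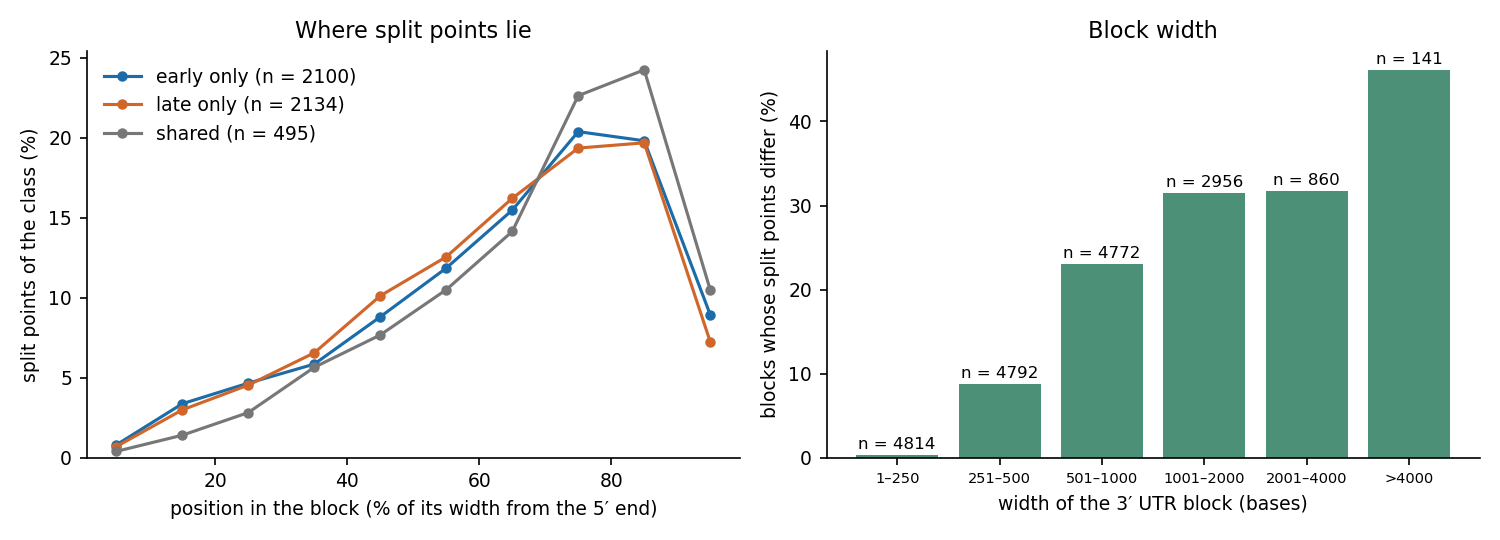
Left, share of early-only, late-only and shared split points by position from the 5′ end of their block, in bins of 10% of block width. Right, share of 3′ UTR blocks whose split points differ, by block width in bases, with the number of blocks above each bar. All 3 classes of split are most frequent between 70% and 90%. The share of differing blocks, out of all blocks with or without a split, is 0.374% in the narrowest and 46.1% in the widest class.

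By the authors' type codes, which the sources used here do not define, 2662 early members were coded LE and 2216 TE, and 2707 and 2211 late. Members made up 28.6% of early TE segments, 25.2% of LE and 0.431% of CE segments. On chromosome 4 they made up 44.4% of early and 42.5% of late 3′ UTR segments, although only 110 and 102 segments. On X the shares were 28.5% and 27.7%, and on the arms of chromosomes 2 and 3 between 21.4% and 23.7%. A gene held a median of 3 members and at most 15.

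Genes with a member stood high in adult head RNA. Their median was 15.1 and 15.4 TPM in the 2 head libraries, against 9.45 and 9.82 TPM in the 2878 other genes with at least 2 3′ UTR segments and 2.73 and 2.92 TPM in genes with 1. At least 1 TPM was reached by 93.5% and 94.1% of genes with a member, against 74.7% and 75.1% of the other genes with at least 2 segments. Among genes with at least 1 TPM in both libraries the gap was smaller. There the medians were 16.2 and 16.4 TPM with a member, against 12.4 and 12.8 in all other genes with a 3′ UTR segment. The head libraries held neuronal and muscle RNA, with 291 and 296 TPM for the vesicle protein gene nSyb and 189 and 199 for the synaptotagmin gene Syt1. The muscle myosin gene Mhc had 575 and 642 TPM, and brp had 63.0 and 64.4. Other marker genes were lower, with 13.4 and 13.3 TPM for elav and 14.5466 and 15.0025 for the glial gene repo. Both elav and repo lay below the medians of genes with a member. Head expression is not that of the embryos, and its part in where splits were placed was not tested.

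Because a split makes at least 2 segments, gene groups were set beside the 5501 genes with at least 2 3′ UTR segments in either annotation, of which 2623 (47.7%) held a member. Among such genes all 3 of the ELAV family did, as did 25 of 36 RNA-binding and RNA regulator genes (69.4%), 13 of 19 ion channel genes (68.4%) and 17 of 30 transcription factors of neural development (56.7%). The counts were 14 of 16 for Wingless, Notch, Ras and Hedgehog signalling (87.5%), 10 of 14 for cytoskeleton and axonal transport (71.4%) and 12 of 22 for synaptic vesicle and transmitter genes (54.5%). Axon guidance and adhesion genes, with 12 of 27 (44.4%), lay below the share of all such genes. Housekeeping genes, with 8 of 13 (61.5%), lay above it and above the synaptic and transcription factor lists.

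The next question was which of these genes the authors list as using a 3′ UTR segment less in a mutant. Each table of the first experiment holds 1 entry per listed gene, made of 1 or more segments, and all listed folds are decreases. The segment numbers and widths of the entries were matched to both annotations. Every early table fitted the early annotation at all of its entries, and every late table the late one. The fne-rbp9 table fitted the early annotation at 39 of 39 entries and the late one at 16. All 4 tables of the second experiment, the late ones included, fitted the early annotation at 174 of 174 entries and the late one at 64, although the labels of the late libraries name the late annotation. The folds of the second experiment at both stages therefore refer to early segments.

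Of the 2623 genes with a member, 271 were in a list of the first experiment and 2352 in none. In 178 of the 271 the listed entry itself held a member. By stage, 141 were listed early only, 9 late only and 121 at both stages. But early lists exist for 7 mutants, counting fne-rbp9, whose embryo stage is unclear, and late lists for 3. Of the early members 215 (4.37%) were in a listed entry, against 1.80% of the other early 3′ UTR segments. Late, 92 members (1.86%) were, against 0.881% of the others.

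For the mutants sampled at both stages, the lists were as follows. In elav early, 136 of the 185 listed genes had a member, 5.18% of the genes with a member, beside 1.60% over all genes with a 3′ UTR segment and 3.67% over those with at least 2. The last share counts segments in the annotation of that stage, where some genes with a member have only 1. In elav-fne early 163 of 235 had one (6.21%, beside 2.04% and 4.66%), and in fne early 45 of 58 (1.72%, beside 0.502% and 1.15%). Late, the counts were 54 of 73 in elav (2.06%, beside 0.632% and 1.45%), 120 of 172 in elav-fne (4.57%, beside 1.49% and 3.41%) and 5 of 8 in fne (0.191%, beside 0.0693% and 0.158%). Of the genes with a member, elav listed 51 at both stages, 85 early only and 3 late only, and elav-fne listed 105, 58 and 15. Of other genes elav listed 15, 34 and 4, and elav-fne 38, 34 and 14.

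The 4 other tables named early include fne-rbp9, whose embryo stage is unclear. In 3 of the 4 the share among genes with a member was again above that of all genes with at least 2 segments. In rbp9 it was close to it. Genes with a member were 113 of 149 in elav-rbp9 (4.31%, beside 1.29% of all genes with a 3′ UTR segment and 2.95% of those with at least 2) and 188 of 284 in elav-fne-rbp9 (7.17%, beside 2.46% and 5.63%). They were 29 of 39 in fne-rbp9 (1.11%, beside 0.338% and 0.773%) and 3 of 6 in rbp9 (0.114%, beside 0.0520% and 0.119%). Tables of the same stage share their wild-type libraries.

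Set against genes with at least 2 3′ UTR segments and no member, the share listed was higher among genes with a member in each of the 10 tables. In elav early it was 5.18% against 1.70%, in elav-fne early 6.21% against 2.50% and in elav-fne late 4.57% against 1.81%. Genes with a member also had wider 3′ UTRs, with a median sum of 1325 bases against 981. Among genes with a sum over 3000 bases, 26.4% of the 390 with a member and 15.9% of the 233 without were in the elav-fne early list. Above 1000 and up to 3000 bases the shares were 4.35% and 2.66%, and up to 1000 bases 0.422% and 0.270%. In elav-fne late the narrowest class went the other way, with 0.211% against 0.338%. The part of 3′ UTR width and of expression in the remaining gap was not tested.

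**Figure D3:**
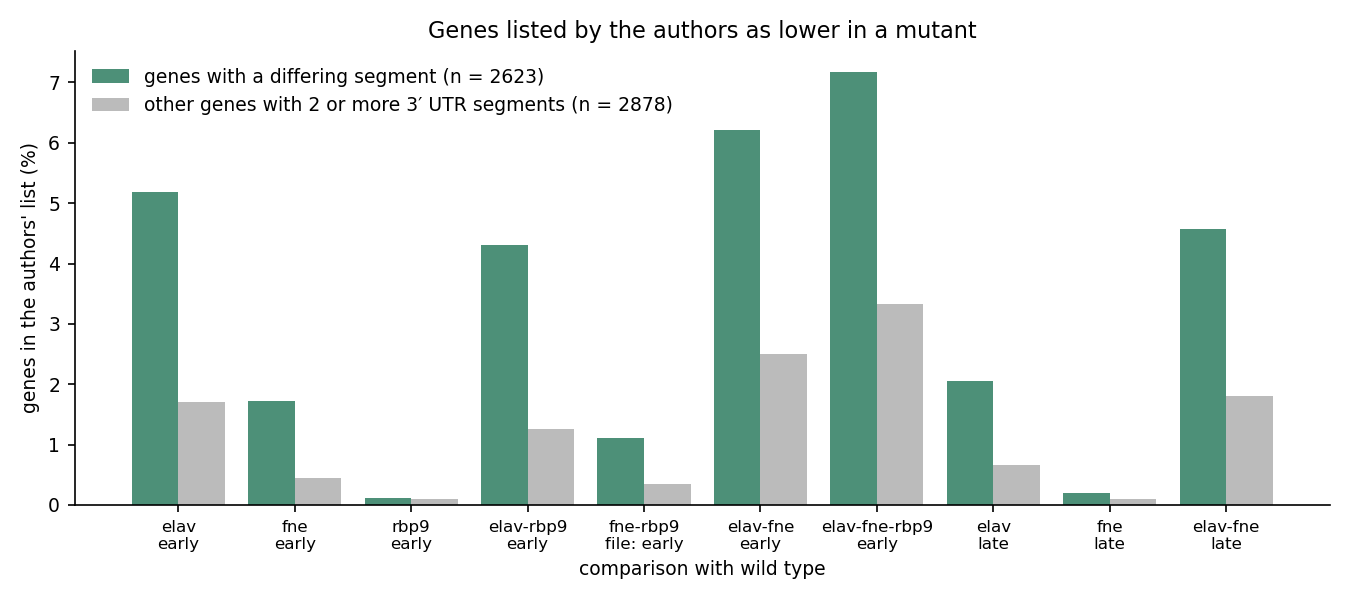
Share of genes, in percent, that the authors list as lower in each mutant, for the 2623 genes with a differing segment and the 2878 other genes with 2 or more 3′ UTR segments. The bars of genes with a differing segment are the higher ones in every comparison, for instance 5.18% against 1.70% in elav early, and almost equal in rbp9, which lists 6 genes.

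The listed entries held members at both stages. Early, 84 of 185 entries did for elav (45.4%) and 44.3% of 235 for elav-fne. Late, 32 of 73 did for elav and 74 of 172 for elav-fne. The authors' deposited tables gave these entries a median log2 fold of -1.55 in elav early, against -1.33 for entries without a member. For elav-fne early, the authors' deposited table gave -1.80 against -1.60. In elav late the order was reversed, with -1.36 against -1.56, and in elav-fne late it was -2.21 against -1.87, again by the authors' deposited tables. Entries with a member were wider, with medians of 1792.5 and 1267 bases in elav early. Their mean normalised count by the authors' deposited table had a median of 183.8, against 154.2.

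The upstream end of an entry marks where the listed stretch begins. Early, it was a split found in 1 annotation only for 47 of 185 elav entries, 56 of 235 elav-fne entries and 21 of 58 fne entries. Late it was so in 17 of 73 entries of elav and 26 of 172 of elav-fne. Over all 3′ UTR segments, 2100 of 20927 early and 2134 of 20961 late ones start at such a split. Starting at a split was not particular to these. The 495 shared splits bounded 11 of the 185 elav, 10 of the 235 elav-fne and 8 of the 58 fne entries early. Late they bounded 8 of 73 in elav and 9 of 172 in elav-fne. In elav early 18 of the 47 had a late split within 50 bases, and 9 had none in the block. In elav-fne early the counts were 15 and 17 of 56. In 34 genes an early entry started at a split that had no late counterpart in the block, and 6 of these genes were in a late list of the first experiment. In 5 genes a late entry started at a split with no early counterpart, and all 5 were in an early list. Of all 262 genes with a member in an early list, 121 were also in a late one. Of all 130 in a late list, the same 121 were also in an early one. Early lists also come from mutants without a late list, such as elav-fne-rbp9 and fne-rbp9.

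The broad transcription factor gene br (FBgn0283451), an ecdysone-response zinc finger factor, was among the 34. Its distal block spans X:1658788-1664869 on the plus strand in dm6, 6082 bases of annotated 3′ UTR. The early annotation splits it at base 1662926, 4138 bases from its 5′ end, and the late one leaves it whole. By the authors' deposited table the distal 1944 bases had an early log2 fold of -1.28 in elav and of -2.89 in elav-fne (adjusted p = 1.3e-57 in the latter). The late table of elav-fne lists the whole block, with -1.14 by the authors' deposited table (adjusted p = 9.9e-22). The second experiment used the distal 1944 bases at both stages, and the authors' deposited tables gave elav-nFne -2.73 early (adjusted p = 5.7e-06) and -0.95 late (adjusted p = 0.089, not passing 0.05).

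A like case was mei-P26 (FBgn0026206), the gene of a TRIM-NHL translational regulator. Its block at X:9175191-9189309 spans 14119 bases and is split early at base 9178299. Early entries cover the distal 11011 bases, with log2 folds of -1.89 in elav and -3.49 in elav-fne by the authors' deposited tables. The late elav-fne entry covers the whole block, with -1.78 by the authors' deposited table. In the second experiment both stages refer to the early segment, and elav-nFne had -3.67 early and -1.79 late by the authors' deposited tables. The part of segment choice in the late fold of the first experiment was not tested.

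At fz2 (FBgn0016797), which encodes a Frizzled receptor of Wingless, the last block spans 3L:19140975-19142232 on the minus strand. It has early splits 958 and 1087 bases from its 5′ end and none late. The elav early entry holds only the last 171 bases, with a log2 fold of -3.52 by the authors' deposited table, and the elav late entry all 1258 bases, with -1.20 by the authors' deposited table. In elav-fne both stages list the whole block, split early and whole late, with -5.95 and -4.26 by the authors' deposited tables. The preceding block of fz2 has splits late only, 234 and 489 bases from its 5′ end.

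Imp (FBgn0285926), the RNA-binding protein of the IGF-II mRNA-binding family, was listed in early tables only in the first experiment. Its block X:10787869-10790804 on the minus strand is split early at 1167 and 1390 bases from the 5′ end and whole late. The distal 1546 bases had log2 folds of -2.63 in elav, -5.40 in elav-fne and -5.57 in elav-fne-rbp9 by the authors' deposited tables. In the second experiment the same 1546 bases passed late as well, with -4.17 early and -2.35 late in elav-nFne by the authors' deposited tables.

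Late-only splits bounded entries at brat, sm and Dscam1. In brat (FBgn0010300), a translational repressor of neural stem cells, early entries covered the 4876 bases of 2L:19172568-19177443. Late entries began at the late split 975 bases further down and covered 3901. The folds were close, with -0.99 early and -1.17 late in elav and -1.16 and -1.30 in elav-fne by the authors' deposited tables. In sm (Smooth, an hnRNP L relative) the early elav and elav-fne entries ran over 10014 bases that began at an early split and included the whole downstream block. The late ones held 5785 bases, from a late split 103 bases inside the downstream block. Its folds were -2.38 and -1.57 in elav and -4.19 and -5.19 in elav-fne, early and late, by the authors' deposited tables. In the neuronal adhesion gene Dscam1 (FBgn0033159) the elav-fne entry went from 1630 bases early to the distal 919 late, with -3.55 and -2.77 by the authors' deposited tables.

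**Figure D4:**
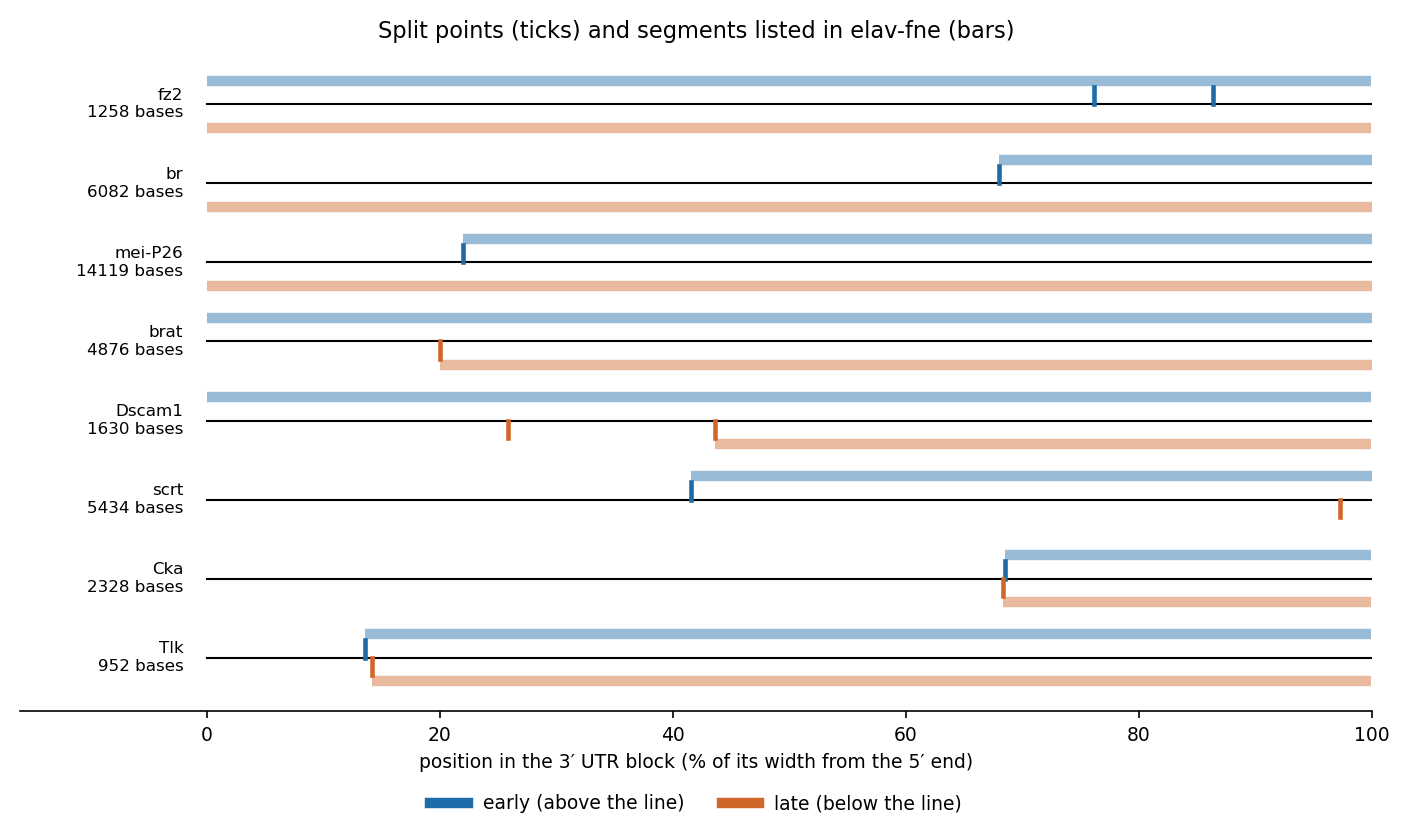
Split points (ticks) and segments listed in elav-fne (bars) along 1 block of 8 genes, early above and late below the line, with position in percent of block width from its 5′ end. In br and mei-P26 the early entry starts at a split absent late, in brat and Dscam1 the late entry starts at a split absent early, in scrt the single split moved by 3025 bases, and in Cka and Tlk it moved by 5 and 6 bases.

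Some splits that bounded a strong decrease moved by a few bases only. In Cka, a scaffold protein of kinase signalling, the split went upstream by 5 bases, from 732 to 737 distal bases. The log2 folds were -2.51 and -2.71 in elav and -4.40 and -4.20 in elav-fne, early and late, by the authors' deposited tables. In Tlk, the Tousled-like kinase gene, the split went downstream by 6 bases, with -4.10 and -3.35 in elav and -4.99 and -3.99 in elav-fne by the authors' deposited tables. In shep the bounding split moved by 1 base, with -2.45 and -0.96 in elav and -3.60 and -3.02 in elav-fne by the authors' deposited tables. The homeodomain factor gene ct had 5 early splits and 2 late ones over 2 neighbouring blocks. Its entry began 68 bases further upstream late and ended 495 bases earlier, with -5.79 and -2.76 in elav and -8.83 and -4.58 in elav-fne by the authors' deposited tables.

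Among genes whose listed elav-fne early entry itself held a member, the 15 lowest folds were those of fne itself (-19.18), Dora (-9.19), ct (-8.83), slo (-7.12), stx (-6.74), fz2 (-5.95), bol (-5.58), Imp (-5.40), Tlk (-4.99), Bsg (-4.88), Shal (-4.81), pxb (-4.65), zld (-4.50), Cka (-4.40) and CG16779 (-4.33), as log2 folds by the authors' deposited table. The value of fne belongs to a mutated gene, and the authors' deposited table gives it a fitted use score of 0.0189 in the mutant. For bol that score is 0.0652. The potassium channel genes slo, of the calcium-activated BK type, and Shal, of the A type, were at -5.03 and -3.44 in elav-fne late by the authors' deposited table. In slo the whole distal region was listed at both stages, with 2 early splits and 1 late one inside it. Of these 15 genes, 14 were also listed in elav-fne late, and Imp was in no late table of the first experiment. Genes whose entry holds no member are not in this order, although several lay within its range, such as Sxl (-18.27), hth (-7.55), Btk (-5.15) and pum (-4.54) by the authors' deposited table. The Sxl value rests on 1045 bases with a use score of 0.0195 in the mutant and a mean normalised count of 15.8. Over 2160 bases Sxl had -3.63 in elav-fne late by the authors' deposited table.

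The ELAV family genes held members at their own 3′ UTRs. In elav the early entry, 3226 bases between 2 early splits of the block X:509235-516849, is not the late one. The late entry of 2007 bases lies upstream in segments that are the same in both annotations. The log2 folds were -2.68 early and -1.23 late in the elav mutant by the authors' deposited tables, and they belong to the mutated gene itself. In fne, the elav-fne entry began at a shared split early and at the block border 612 bases upstream late. Its folds, also those of a mutated gene, were -19.18 and -4.56 by the authors' deposited tables. Rbp9 was listed in elav-fne early only, for the 3044 bases beyond its early split, with -0.87 (adjusted p = 7.5e-05) by the authors' deposited table. The late split of Rbp9 lay 121 bases further downstream.

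Members also lay in genes whose listed segment was not a member. The Hox cofactor gene hth had 7 differing splits in 2 blocks, yet its listed last segment of 2286 bases was the same at both stages. This was also so for the translational repressor pum, the zinc finger gene jim, the RNA-binding genes mub and orb2, the scaffold gene dlg1 and the Hox gene Abd-B. In the Sex-lethal gene Sxl the members lay upstream of the listed distal segments. Its paralog ssx had an early fne entry of 580 bases without a member (-2.98) and a late one of 286 bases just upstream, beyond a late-only split (-1.72), as log2 folds by the authors' deposited tables.

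RNA regulators with a listed entry that held a member were elav, fne, Rbp9, sm, brat, shep, bru3, Hrb27C, ps, msi, rin, Imp, mei-P26, Rbfox1 and ssx. In Hrb27C, an hnRNP gene, the entry had the same ends at both stages and an early split inside it, 573 bases from its start. Its log2 folds were -2.44 and -1.41 in elav early and late by the authors' deposited tables. In the Musashi gene msi the entry spanned 5202 bases of elav-fne early, with -1.62 by the authors' deposited table, and no late table of the first experiment lists it. In the second experiment the distal 2 of its 3 segments (2779 bases) had -1.36 early and -0.98 late (adjusted p = 0.00066) in elav-nFne by the authors' deposited tables. In rin, the G3BP gene, the distal 484 bases had -3.41 in elav early by the authors' deposited table. Its late split was 2 bases away, and no late table of the first experiment lists the gene. In the second experiment the same 484 bases had -4.01 early and -3.05 late (adjusted p = 0.00034) in elav-nFne by the authors' deposited tables.

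Transcription factors and signalling genes gave further examples. The pros gene, for the neural factor Prospero, had its elav-fne entry start 5 bases apart at the 2 stages. The early entry ran on to an early-only split in the next block and held 1812 bases, and the late one held 1493. Their log2 folds were -2.94 and -2.67 by the authors' deposited tables. In scrt the distal 3175 bases had -1.85 in elav-fne early by the authors' deposited table. The late annotation has its only split there 149 bases before the end, and no late table of the first experiment lists scrt. In the second experiment the same 3175 bases had -1.71 early and -0.75 late (adjusted p = 5.9e-07) in elav-nFne by the authors' deposited tables. In Sema1a the elav-fne entry ran from an early split to the end of the block early (1791 bases, -1.45) and from the start of the block to a late split late (1772 bases, -0.89), by the authors' deposited tables. Rala, a Ras-like GTPase gene, was listed in rbp9 alone, for 1100 bases between 2 early-only splits, with -2.33 by the authors' deposited table. The actin gene Act42A was listed in fne and fne-rbp9 for its last 153 bases, with -0.92 and -0.76 by the authors' deposited tables.

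Folds of the 2 stages were then set side by side at genes listed at both. In elav 66 genes were listed early and late. Of these, 29 had the same segment in both annotations, 2 had the same ends with other splits inside, 7 had an upstream end moved by at most 50 bases and 19 by more, 8 differed at the downstream end only and 1 had other segments without a member. In elav-fne the counts over 143 genes were 66, 8, 9, 32, 19 and 9. In fne, 5 genes were listed at both stages and 1 had the same segment. Where the upstream end moved by more than 50 bases, the median move was 975 bases in elav and 673.5 in elav-fne.

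Late folds were mostly nearer 0, with and without a differing segment. The late minus early log2 fold of the authors' deposited tables had a median of 0.58 in elav entries with a member at either stage and 0.37 in those with none. In elav-fne the medians were 0.37 and 0.27. Late values were the higher ones in 17 of 19 elav genes with an upstream end moved by more than 50 bases and in 21 of 29 with the same segment. In elav-fne these counts were 25 of 32 and 45 of 66. The tables of the 2 stages were fitted apart and use different libraries, wild type included, so stage and annotation cannot be told apart in them. Nothing here tests a difference between genes with and without a member.

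**Figure D5:**
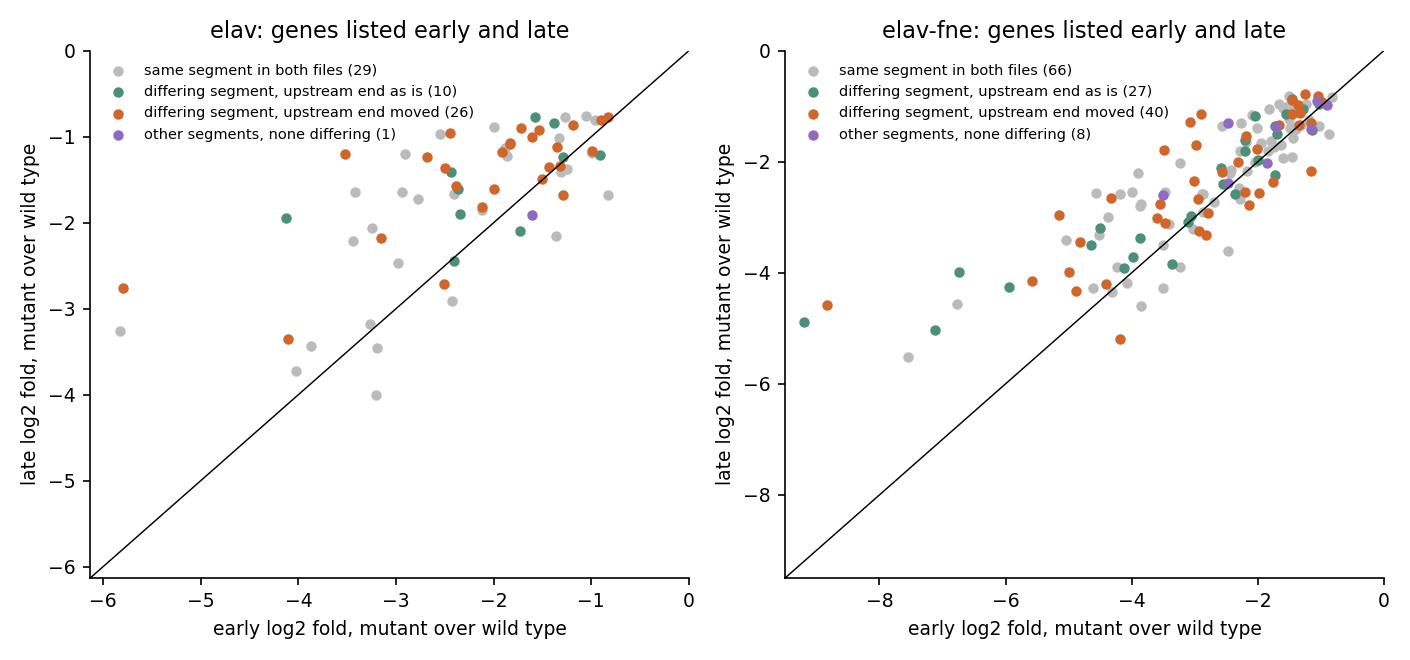
Early against late log2 fold, mutant over wild type, from the authors' deposited tables, for genes listed at both stages in elav (left) and elav-fne (right), by how the listed segment differs. Points above the diagonal have a late fold nearer 0, as do 50 of 66 genes in elav and 105 of 143 in elav-fne. Folds below -10 are not drawn.

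The second experiment gives the same early segments at both stages. Of its 173 genes with a fold, 83 had an entry with a member. In elav-nFne early 70 of the 83 were lower at an adjusted p under 0.05 (84.3%, beside 82.1% of all 173), and late 77 (92.8%, beside 90.2%). In nFne it was 3 early (3.61%, beside 2.89%) and 13 late (15.7%, beside 14.5%). These shares were near those of all 173 genes. The median log2 fold of the 83 in elav-nFne was -2.03 early and -1.44 late, and of the 90 others -1.77 and -1.43, by the authors' deposited tables. Late minus early, the median was 0.49 with a member and 0.27 without, and the late value was the higher in 70 of 83 and 68 of 90. For the 46 entries that start at an early-only split it was 0.58, with 41 of 46 higher late. In nFne the late values were mostly the lower ones by the authors' deposited tables, with a median late minus early of -0.16 with a member (22 of 83 higher late) and -0.27 without (17 of 90). All 174 genes of these tables are also listed in elav early, and the adjusted p is the smallest over the segments of an entry.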

How the data were processed

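The authors deposited 2 segment annotations, written with rtracklayer 1.40.5 per the file headers and in dm6, as the submitters' processing notes name it. How segments were split, and from which libraries, is not given in the sources used here. The authors' deposited tables hold a log2 fold of segment use, raw and adjusted p-values, a fitted use score per condition and a mean normalised count as a signal over libraries, per the file headers. Their tool is not named. All entries of the first experiment were decreases. For heads the authors deposited TPM.

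Segments were compared exactly, grouped into blocks and joined to the tables by gene and segment number. Summed widths of an entry count a shared base once per segment. No values per embryo library were used, so no test was made, and only the authors' adjusted p-values are quoted. Replicates are not known to come from separate crosses, so those p-values may measure technical spread. The comparison of splits was tested on simulated data. Symbols and features came from the BDGP6.54 annotation (Ensembl release 115), which matched 2604 of 2623 genes. Python 3.11.15, numpy 2.4.6, pandas 2.3.3 and matplotlib 3.10.9 were used. Members and gene lists were chosen with earlier results of these data known. Named genes were up to 15 whose listed entry holds a member, by their elav-fne early fold, listed genes of the gene lists that hold a member, and elav, fne and Rbp9. No gene end moved, so a planned set by such shifts was empty. ELAV iCLIP libraries were not analysed here.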

Additional observations from a re-analysis of the deposited data

How the results depend on the processing

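Of 52 values under alternative settings for 40 results, 41 stayed within a factor of 1.5, or within 0.1 for log2 folds, and 11 moved. None reversed, but only the late minus early folds could be recorded as reversed. The narrowest members were 102 bases early and 103 late, so leaving out members under 50 bases could change nothing. The ratio of the share listed among genes with a member to that among other genes fell when the other genes needed at least 2 3′ UTR segments. It went from 9.44 to 3.05 in elav early, 9.67 to 3.12 in elav late, 7.70 to 2.48 in elav-fne early, 7.85 to 2.53 in elav-fne late, 6.66 to 2.15 in elav-fne-rbp9, 10.7 to 3.44 in elav-rbp9, 11.8 to 3.80 in fne early and 9.86 to 3.18 in fne-rbp9. Genes with 1 segment can hold no split in that annotation, and the alternative removes them among the other genes only. All 2623 genes with a member were kept, including those with 1 segment in that annotation. Lists under 10 genes were left out of these ratios. With at least 1 TPM in both libraries, the median head expression of other genes went from 4.46 to 12.4 and from 4.69 to 12.8 TPM. That of genes with a member went from 15.1 to 16.2 and from 15.4 to 16.4 TPM. Without elav, fne and Rbp9, the median late minus early fold of the fne entries with a member went from 0.88 to 0.51. Treating ends within 10 bases as equal left 4368 early and 4402 late members. The planned motif searches were not run, because no genome sequence was used here. No paired analysis was possible because the embryo tables hold comparisons and no values per library, and for the same reason no library could be left out. Depth per library is unknown.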
